A study of Bos taurus with 170 samples.

Results

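The genes described here are 10 members of the BCL2 family, chosen by name: the survival genes BCL2L10, MCL1, BCL2L1 and BCL2, the pore-forming effectors BAX and BAK1, and the BH3-only genes BAD, BID, BCL2L11 and PMAIP1. Of these 10 genes, 7 had a row among the 10772 genes of the UMI table, and BCL2L10, BAX and PMAIP1 were not analysed here. Single blastomeres of bovine embryos were profiled by SCRB-Seq, a plate-based method that tags the 3′ end of each captured mRNA with a molecular barcode, the UMI, and counts each tag as 1 however often PCR copied it. The Day 2 group held 6 embryos labelled as 8-cell stage with 43 cells, 6 to 9 per embryo, and the Day 3 group held 8 embryos labelled as 16-cell stage with 118 cells, 13 to 17 per embryo, after removal of 9 of 170 cells that had fewer than 2000 UMI. Those 9 cells held 0 UMI of the 7 members.

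All embryos came from oocytes of slaughterhouse ovaries that were matured and fertilized in vitro with frozen-thawed sperm and cultured in synthetic oviductal fluid with oestrous cow serum. None received a treatment or carried a genetic modification named in the labels. The study chose embryos whose cleavage timing came closest to its ranges of best blastocyst formation. Several of them, Day2-E6, Day3-E1, Day3-E5 and Day3-E6 included, still divided later than those ranges at every recorded cleavage. The values thus describe selected embryos produced in vitro, not all of which had favourable kinetics. The labels do not say which embryos shared a cow, a bull or a round of fertilization, so p-values measure the spread between these embryos. The embryo was the replicate throughout, because cells of the same embryo are not independent.

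BCL2 family proteins decide whether the outer mitochondrial membrane stays intact. Survival members hold the pore-forming effectors in check, and BH3-only members either block the survival proteins or activate the effectors, after which cytochrome c leaves the mitochondria and caspases are activated. MCL1 is a short-lived protein of this family and is required for early mouse development. In cattle, the period between the 8-cell and the 16-cell stage is the time of major embryonic genome activation, when transcripts stored in the oocyte are replaced by transcripts of the embryo.

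Summed over cells, the genes of Day 2 embryos had 438899 to 920192 UMI and those of Day 3 embryos 294912 to 600185. A cell held a median of 75114 UMI on genes on Day 2 (range 2634 to 357287) and 24017 on Day 3 (range 2078 to 108376). All levels are CPM, a gene's UMI per 1000000 gene UMI of the same embryo, and 1 UMI in a cell of median depth equalled 13 CPM on Day 2 and 41.6 CPM on Day 3. Because the method counts 1 3′ end per molecule, CPM was compared between genes without a correction for length. In sums over cells, fewer cells that contain a transcript and less of it per cell cannot be told apart. Counting errors cover the sampling of molecules only.

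The members spanned more than 2 orders of magnitude. Averaged over the 14 embryos, MCL1 stood at 172 CPM ± 138 (SD, n = 14), BCL2L1 at 36.8 ± 13, BCL2L11 at 19.2 ± 6.55, BAD at 11 ± 6.94, BID at 5.71 ± 6.58, BCL2 at 0.807 ± 1.36 and BAK1 at 0.472 ± 0.938. By this mean, MCL1 ranked 1473 among the 10772 genes and BCL2L1 ranked 4320. MCL1 exceeded BCL2L1 in 6 of 6 Day 2 and 8 of 8 Day 3 embryos. BCL2L1 exceeded BCL2L11 in 6 of 6 and 7 of 8 embryos, and BCL2L11 exceeded BAD in 5 of 6 and 7 of 8. BAD and BID were less clearly ordered, with BAD higher in 4 of 6 and 6 of 8 embryos. BCL2 and BAK1 could not be ordered, since 6 and 3 UMI were counted for them in all 161 cells.

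**Figure D1:**
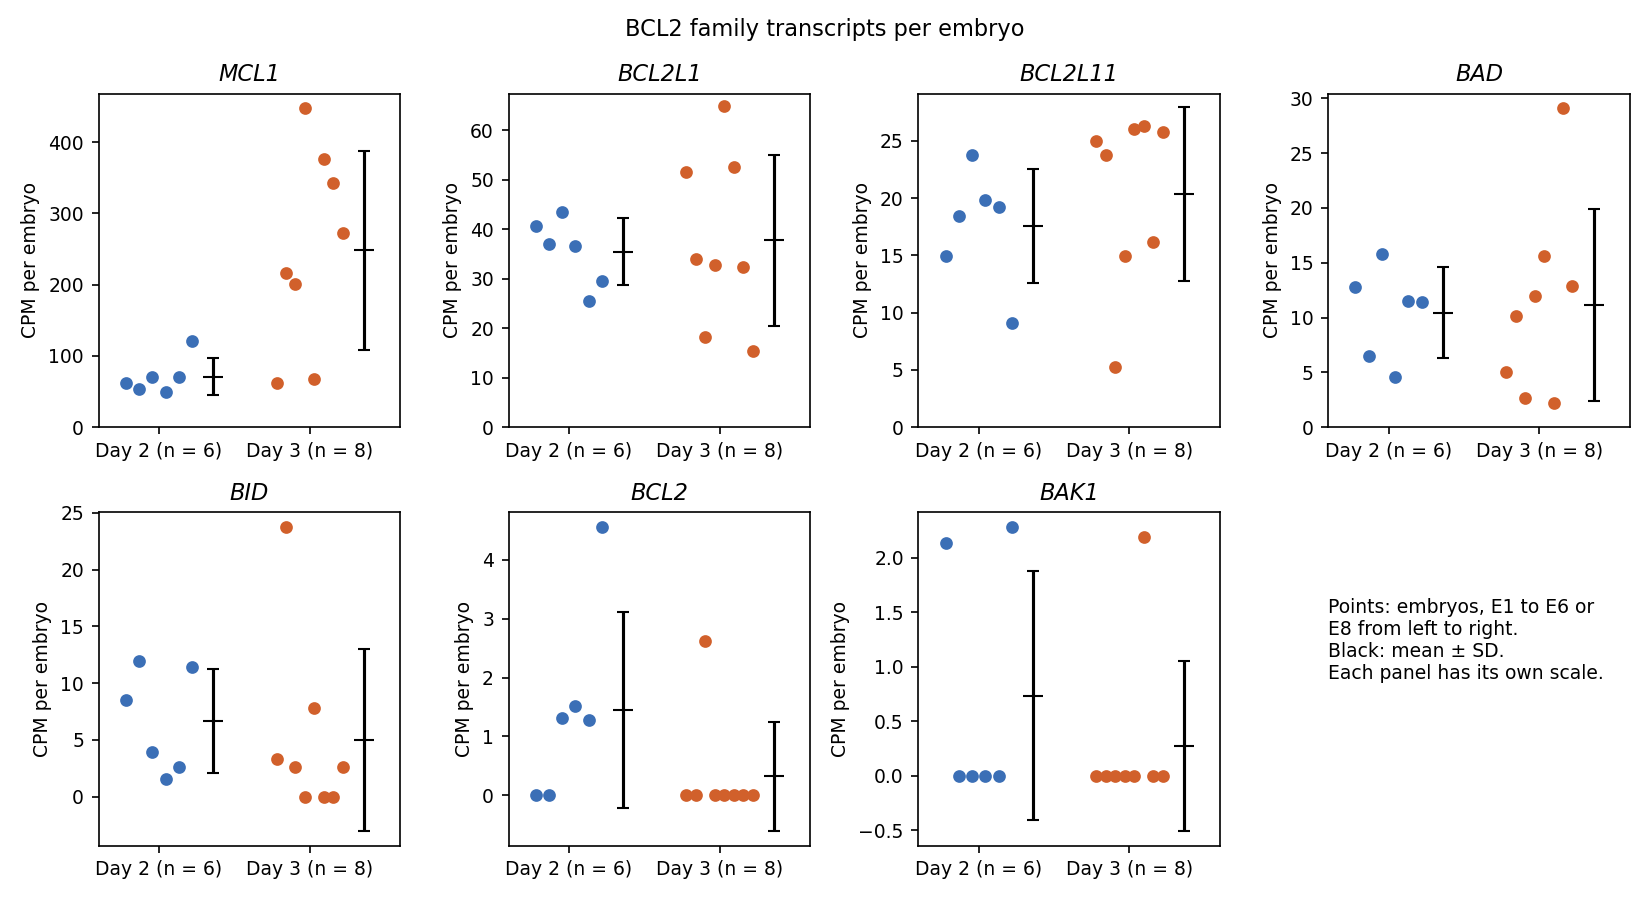
CPM per embryo (y axis, linear, a separate scale for each gene) of the 7 members on Day 2 (blue, 6 embryos) and Day 3 (orange, 8 embryos), with the mean and SD in black. MCL1 lay between 48.7 and 121 CPM on Day 2 and reached 448 CPM on Day 3, where Day3-E1 and Day3-E5 stayed inside the Day 2 range, while the other members overlapped widely between the days.

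MCL1, a survival protein with rapid turnover, was the only member to pass the test between the days. On Day 2 its level was 48.7 CPM in the lowest embryo, 65.9 in the median and 121 in the highest. On Day 3 the lowest embryo held 61.6 CPM, the median was 245 and the highest held 448. The Day 3 embryos did not form a uniform group. Day3-E1 with 61.6 CPM and Day3-E5 with 67.6 CPM lay inside the Day 2 range, and the other 6 lay above every Day 2 embryo. Those 6 were Day3-E3 with 202, Day3-E2 with 217, Day3-E8 with 273, Day3-E7 with 343, Day3-E6 with 377 and Day3-E4 with 448 CPM.

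Summed by day, 271 MCL1 UMI were counted in the 43 Day 2 cells and 738 in the 118 Day 3 cells. Cells with an MCL1 UMI held a median of 6 on Day 2 and 5 on Day 3. The median of all gene UMI per cell fell from 75114 to 24017. The CPM below are thus shares of the UMI, and a change in MCL1 molecules per cell was not tested. The embryo means were 70.8 CPM ± 26 (SD, n = 6) and 249 ± 140 (SD, n = 8). In edgeR's quasi-likelihood test over embryo sums, MCL1 rose by 2.16 on the log2 scale (SE 0.46, 95% interval 1.2 to 3.1, adjusted p = 0.00226 by Benjamini-Hochberg over all genes tested), a 4.47-fold fitted difference after edgeR's TMM scaling, which corrects for the composition of the libraries. Of the 3 members that passed the count filter, which drops genes with too few UMI, 1 was called higher on Day 3, where 21.2% of all 5274 genes tested were called higher. In either direction, 32.5% of all genes were called. Without the count filter, 1 of 7 members was called, and 20.3% of 10772 genes were.

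The scale of the whole comparison depends on the normalisation. With TMM scaling, 1117 genes were called higher and 595 lower on Day 3, and the median log2 fold change of all genes was -0.04. Without composition scaling the split was 890 higher and 981 lower with a median of -0.27, and in DESeq2 the median was 0.10. MCL1 was called in each of these fits, at 1.82 without scaling (edgeR, adjusted p = 0.00234) and 2.1 in DESeq2 (adjusted p = 2.87e-05).

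By the sample titles the cells were spread over plates, which did not match the days evenly. Runs of cell barcodes are not named in the labels. They were inferred here from the order of the samples, with a later run from the point where a barcode first recurred. The later run held cells of Day 3 embryos only, so for these cells run and day cannot be told apart. On plate 3, the 4 Day 2 embryos held 48.7 to 69.9 CPM of MCL1, and the 2 Day 3 embryos held 67.6 and 377 CPM. On plate 2, the 2 Day 2 embryos held 70.4 and 121 CPM, and the 2 Day 3 embryos held 273 and 343 CPM. Plate 1 held Day 3 embryos only, at 61.6 to 448 CPM. With plate as a covariate, the MCL1 difference was 2.1 on the log2 scale (edgeR, adjusted p = 0.00796). By the collection times in the paper, the Day 3 embryos of each plate shared a single time, different for each plate. Plate and collection time thus cannot be told apart among Day 3 embryos. The first run held all Day 2 embryos but of Day 3 only Day3-E1 and Day3-E2 in full. In a fit over these embryos, the difference was 1.18 and was not called (edgeR, adjusted p = 0.160). Day3-E3, at 202 CPM, was left out of that fit because 1 of its 16 cells fell in the later run.

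The difference between Day 3 embryos was also seen from cell to cell. Among cells with 10000 or more UMI, the median cell of a Day 3 embryo held 52.9 CPM of MCL1 in Day3-E1 and 63.9 in Day3-E5, where single cells reached at most 157 and 93.7 CPM. In Day3-E4, by contrast, the lowest of 11 such cells held 210 CPM and the median cell held 453. Day3-E6 had the widest spread, from 0 UMI in 1 cell to 1352 CPM in another, the latter with 17 MCL1 UMI of 12575. The ratio of the variance among cells to the counting variance was taken over all kept cells, those under 10000 UMI included. It was 7.66 in Day3-E6, 1.06 to 2.21 in the other 7 Day 3 embryos and 0.281 to 2.09 in the Day 2 embryos. A value of 1 is that of counting alone.

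**Figure D2:**
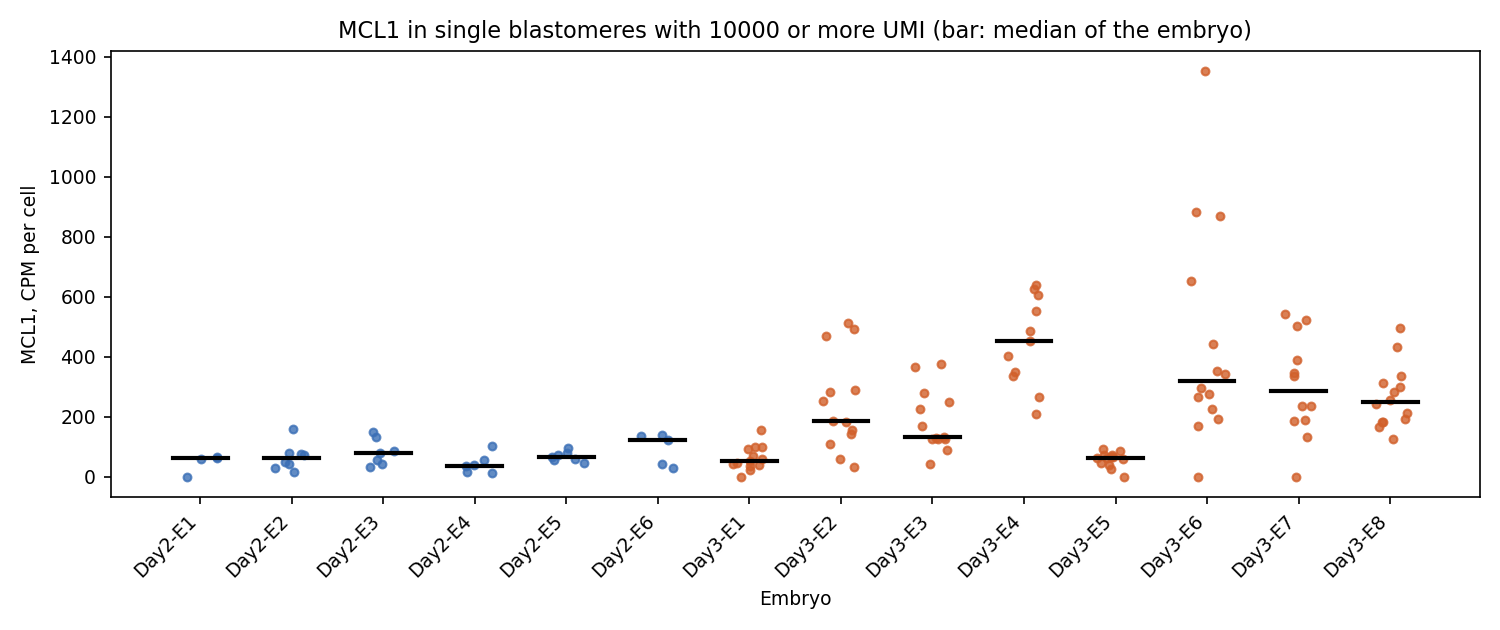
MCL1 in single cells with 10000 or more UMI on genes (points, CPM on the y axis) by embryo (x axis, blue Day 2, orange Day 3), with the median of each embryo as a bar. The cells of Day3-E1 and Day3-E5 stayed at or below 157 CPM, whereas the 11 cells of Day3-E4 all lay at or above 210 CPM.

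BCL2L1, which encodes the survival protein BCL-XL, did not pass the test. On Day 2 the lowest embryo held 25.6 CPM, the median was 36.7 and the highest held 43.5. On Day 3 these values were 15, 33.4 and 65.0 CPM. The Day 3 embryos lay on both sides of the Day 2 range, with Day3-E1, Day3-E6 and Day3-E5 above it and Day3-E3 and Day3-E8 below it. The fitted log2 fold change was 0.33 (SE 0.27, 95% interval -0.23 to 0.89, edgeR adjusted p = 0.350), and its sign turned to -0.18 when each cell was weighted equally. Day3-E5 and Day3-E1, the embryos with low MCL1 on Day 3, had BCL2L1 levels of 65.0 and 51.7 CPM. In these 2 embryos MCL1 and BCL2L1 were close to each other, while in Day3-E8 the MCL1 level was 273 and that of BCL2L1 15 CPM.

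BCL2, the survival gene that gave the family its name, was barely detected. In Day 2 embryos 5 UMI were counted in 5 of 43 cells, from 4 of 6 embryos, and on Day 3 there was 1 UMI in 118 cells, in Day3-E3. The ratio of the Day 3 to the Day 2 rate was 0.255, with an exact 95% counting interval of 0.00540 to 2.28. An embryo with 0 UMI could still hold up to 3.26 to 10.17 CPM, the level of 3 counts at the depth of the deepest and the shallowest embryo. A difference between the days was not detectable at this depth (log2 fold change without the filter -1.34, SE 0.97, edgeR adjusted p = 0.355).

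BAK1 was the sole pore-forming effector with a row. It was counted with 2 UMI on Day 2, in Day2-E1 and Day2-E6, and with 1 UMI on Day 3, in Day3-E6. The ratio of the Day 3 to the Day 2 rate was 0.639, with an exact 95% counting interval of 0.0108 to 12.3. These counts set no direction, and the fitted value was -0.37 in edgeR without the filter (adjusted p = 0.868) and 0.40 in DESeq2.

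Among the BH3-only genes, BCL2L11 was the most abundant. It encodes BIM, which binds survival members and can activate the effectors. Its lowest, median and highest levels were 9.11, 18.8 and 23.7 CPM on Day 2 and 5.24, 24.4 and 26.3 CPM on Day 3. In 4 Day 3 embryos the level was above the Day 2 range, at 24.99 to 26.3 CPM, and in Day3-E3 it was below it. The fitted log2 fold change was 0.46 (SE 0.32, 95% interval -0.21 to 1.12, edgeR adjusted p = 0.274). The highest value, in Day3-E6, came from 12 UMI, of which 11 were in 1 cell.

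BAD, a BH3-only protein controlled by growth factor kinases, was counted with 41 UMI on Day 2 and 32 on Day 3. Its lowest, median and highest levels were 4.57, 11.46 and 15.8 CPM on Day 2 and 2.19, 11.06 and 29.1 CPM on Day 3. All 6 Day 2 embryos lay inside the Day 3 range. BID, the BH3-only protein that links death receptors to mitochondria, was counted with 26 and 14 UMI. It lay between 1.52 and 11.95 CPM on Day 2, and on Day 3 it had 0 UMI in Day3-E4, Day3-E6 and Day3-E7 and 23.7 CPM in Day3-E2. Fits without the count filter gave log2 fold changes of 0.23 for BAD (SE 0.51, 95% interval -0.81 to 1.28, edgeR adjusted p = 0.778) and -0.31 for BID (SE 0.72, 95% interval -1.78 to 1.17, edgeR adjusted p = 0.794). These intervals span changes of more than 1 log2 unit in at least 1 direction.

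**Figure D3:**
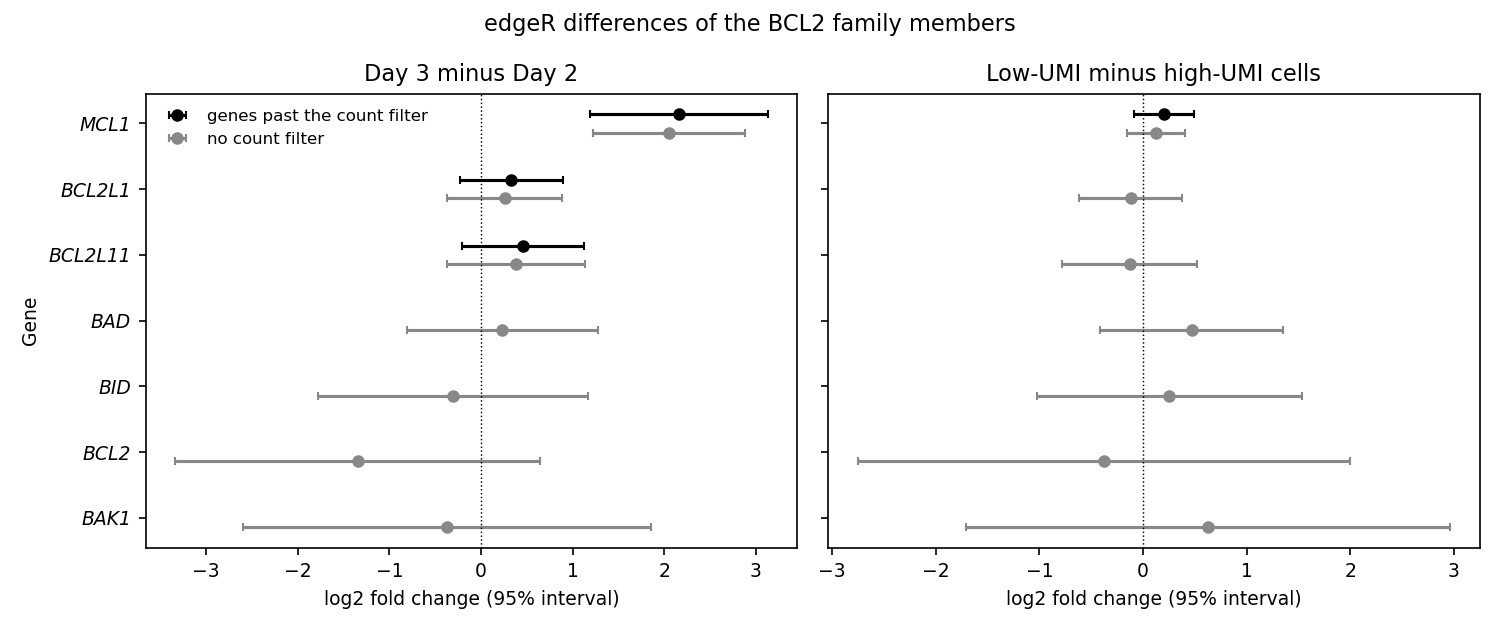
Log2 fold changes with 95% intervals from edgeR (x axis) for the 7 members (y axis), for Day 3 minus Day 2 (left) and for low-UMI minus high-UMI cells of the same embryo (right), with genes past the count filter in black and fits without a filter in grey. The interval excluded 0 for MCL1 between the days, from 1.2 to 3.1, and included 0 for every other member and in every comparison of low-UMI with high-UMI cells.

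Shares of cells with a UMI followed depth as well as level. MCL1 was found in 85.4% ± 18.4 of the cells of a Day 2 embryo (SD, n = 6) and in 92.6% ± 8.22 of those of a Day 3 embryo (SD, n = 8). Thinned to 10000 UMI per cell, which kept 37 Day 2 and 103 Day 3 cells and left out 6 and 15 shallower ones, these shares were 47.3% ± 9.94 and 79.8% ± 19.5. For BCL2L1 the shares as found were 83.3% ± 12 and 55.3% ± 17.2, and after thinning 32.3% ± 8.38 and 33.1% ± 14. At equal depth the mean shares for BCL2L1 thus differed by less than their SD. BCL2L11 had shares of 61.8% ± 19.1 and 31.5% ± 15 as found and of 17% ± 7.05 and 14.0% ± 7.46 after thinning. For BAD, 55.1% ± 17 and 19.3% ± 11 became 9.55% ± 2.98 and 8.91% ± 7.65, and for BID, 39.6% ± 16 and 8.44% ± 12 became 6.2% ± 4.39 and 4.55% ± 7.91.

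Transcripts of survival members were found in nearly every well-covered cell. With 10000 or more UMI, all 37 Day 2 and all 103 Day 3 cells held at least 1 UMI of MCL1, BCL2L1 or BCL2. A UMI of BAK1, BAD, BID or BCL2L11 was found beside them in 32 of the 37 and 51 of the 103 cells, at depths that differed between the days.

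The survival members together held 86.8 to 155 CPM per Day 2 embryo (median 99.9) and 113 to 481 CPM per Day 3 embryo (median 270). The 4 death members held 25.9 to 43.5 CPM (median 35.6) and 10.47 to 57.6 CPM (median 37.3). Survival UMI outnumbered death UMI in every embryo, by a ratio of 2.44 to 4.53 on Day 2 (median 2.79) and 2.68 to 21.3 on Day 3 (median 7.64). The ratio was 2.68 in Day3-E5, 3.4 in Day3-E1 and 4.35 in Day3-E2, within the Day 2 range, and 7.0 to 21.3 in the other 5. MCL1 made up 41.9% to 63.9% of all member UMI in Day 2 embryos and 37.1% to 88.2% in Day 3 embryos. The ratio covers the 7 members with a row, without BAX, BCL2L10 and PMAIP1, and counts transcripts, not proteins. Its highest value, in Day3-E3, rested on 4 death UMI. With each cell weighted equally the range was 2.62 to 7.58 on Day 2 and 2.39 to 35.0 on Day 3. The value then moved from 4.53 to 7.58 in Day2-E6, from 14.0 to 35.0 in Day3-E6, the new highest, from 17.9 to 9.11 in Day3-E4 and from 8.29 to 5.27 in Day3-E7, which then lay inside the Day 2 range.

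**Figure D4:**
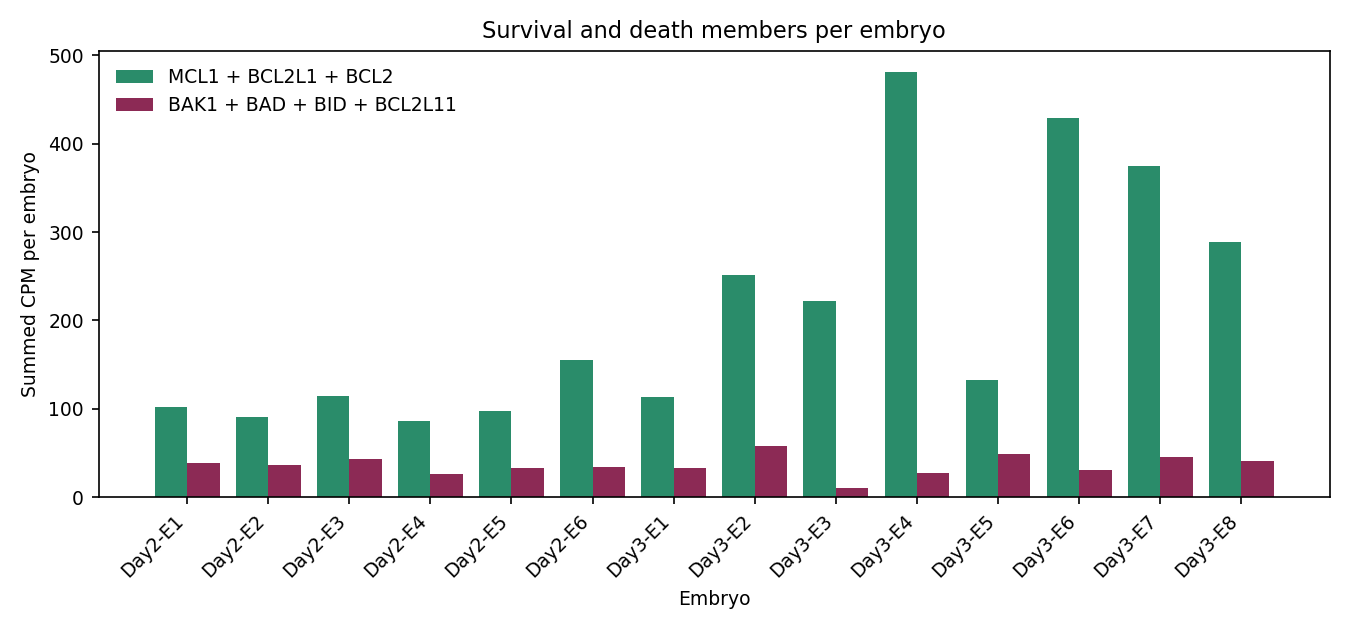
Summed CPM (y axis) of the survival members MCL1, BCL2L1 and BCL2 (green) and of the death members BAK1, BAD, BID and BCL2L11 (purple) in each embryo (x axis). The survival bars ranged from 86.8 to 155 CPM on Day 2 and reached 481 CPM on Day 3, while the death bars stayed between 10.47 and 57.6 CPM in all 14 embryos.

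The cells of each embryo were ranked by their UMI on genes, and the lower-ranked cells were compared with the same number of higher-ranked cells, to ask whether shallow cells carried another balance of survival and death transcripts. On Day 2 this set 20 low-UMI cells with a median of 37940 UMI against 20 high-UMI cells with 135539, and on Day 3 57 cells with 15983 against 57 with 32757. Within an embryo, the high-UMI cells held 1.88 to 21.9 times the UMI of the low-UMI cells (median 2.67). They also held more ERCC spike-in molecules, which were added in equal amount to each well: the median over embryos was 591 ERCC UMI per low-UMI and 2046 per high-UMI cell on Day 2, and 425 and 825 on Day 3. Gene UMI per ERCC UMI were higher in the high-UMI cells in 7 of 14 embryos. The UMI total of a cell thus moved with its ERCC UMI, and the part of RNA content in it was not tested.

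MCL1 did not differ detectably between low-UMI and high-UMI cells. On Day 2 the low-UMI cells held 0 to 115 CPM (median 54.9) and the high-UMI cells 50.2 to 131 (median 62.0), and MCL1 was higher in the low-UMI cells of 2 of 6 embryos. On Day 3 the low-UMI cells held 77.2 to 518 CPM (median 301) and the high-UMI cells 53.4 to 476 (median 243), and MCL1 was higher in the low-UMI cells of 5 of 8 embryos. The largest gaps were in Day3-E6, with 518 against 318 CPM, and Day3-E2, with 339 against 154 CPM. The Day 2 value of 0 came from Day2-E1, whose 3 low-UMI cells held 20417 UMI in all, so that 0 counts allow up to 147 CPM.

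With embryo as a block, the log2 fold change of low-UMI minus high-UMI cells was 0.21 for MCL1 (SE 0.15, 95% interval -0.08 to 0.50, edgeR adjusted p = 0.447). MCL1 was the 1 member that passed the filter and it was not called, where 5.53% of 3674 genes were. Without the filter 0 of 7 members were called by edgeR, 0 had an unadjusted p below 0.05, and among 10744 genes 0.233% were called higher and 1.89% lower in the low-UMI cells. DESeq2 also called 0 of 7, with no adjusted p for 6 of them. The difference between the days was 0.49 for MCL1 on the log2 scale (SE 0.33, 95% interval -0.16 to 1.14, edgeR adjusted p = 0.869) and was not called, where 0.0817% of genes were called with the filter and 0.0186% without it.

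The other members gave wide intervals. BCL2L1 was higher in the low-UMI cells of 7 of 14 embryos (log2 fold change -0.12, SE 0.25, 95% interval -0.62 to 0.38, edgeR adjusted p = 0.935). BCL2L11 was higher in the low-UMI cells of 6 of 14 (-0.13, SE 0.33, 95% interval -0.78 to 0.53, edgeR adjusted p = 0.948). BAD was higher in 5 and lower in 9 of 14 embryos, yet its fitted value was 0.47 (SE 0.45, 95% interval -0.42 to 1.36, edgeR adjusted p = 0.864), with 7 of its 23 UMI in low-UMI cells found in Day3-E7, at 79.4 CPM. BID was higher in 5 and lower in 6 of 14 embryos, with 11 UMI in low-UMI and 28 in high-UMI cells. BCL2 and BAK1 had 1 UMI each in low-UMI cells and 5 and 2 in high-UMI cells.

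**Figure D5:**
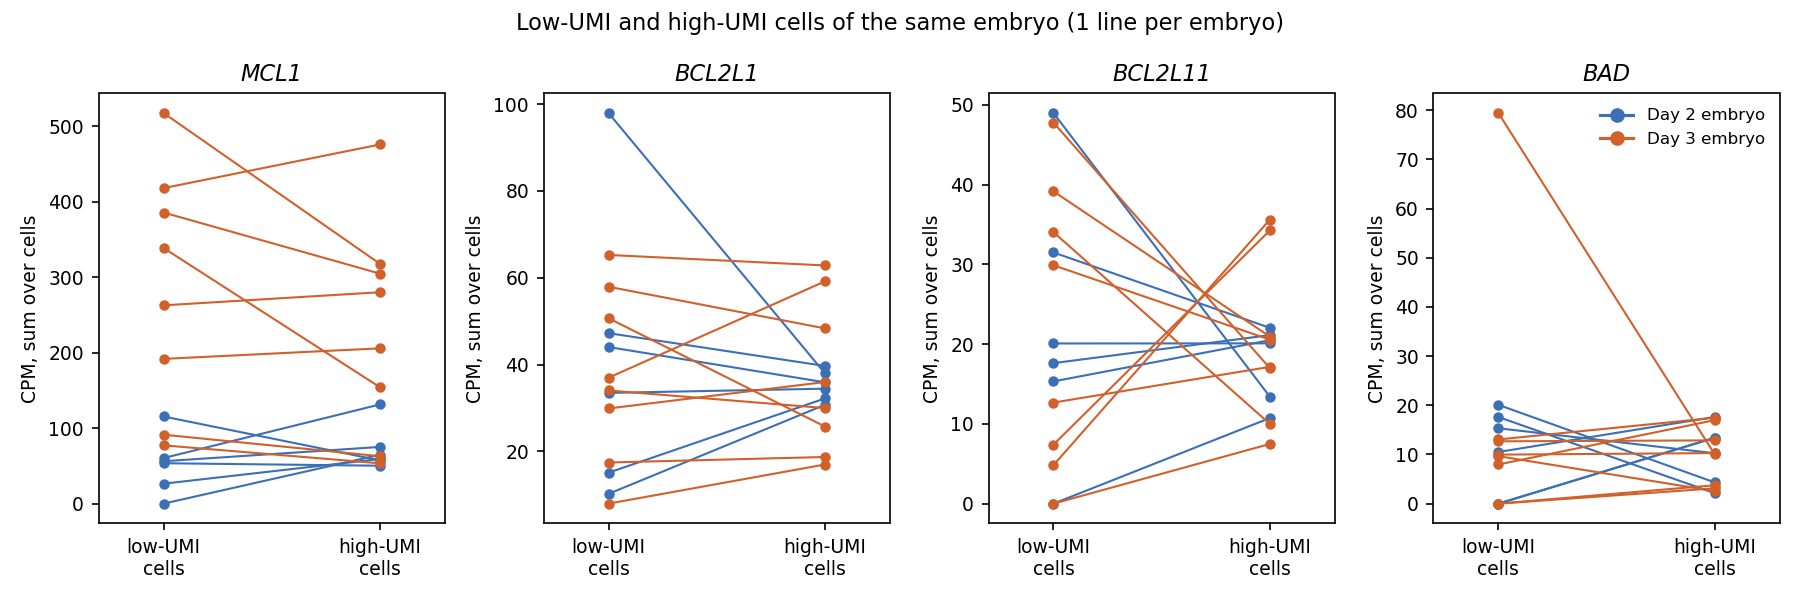
CPM summed over the low-UMI and the high-UMI cells of each embryo (x axis; 1 line per embryo, blue Day 2, orange Day 3) for MCL1, BCL2L1, BCL2L11 and BAD, each on its own linear y axis. The lines cross in both directions for each gene, and MCL1 was higher in the low-UMI cells of 7 of 14 embryos.

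Survival UMI per death UMI, pooled by day, was 2.18 in low-UMI and 3.1 in high-UMI cells on Day 2, and 8.14 and 7.1 on Day 3. By embryo, the ratio was higher in the low-UMI cells of 1 Day 2 and 6 of 8 Day 3 embryos. It was lower in those of 4 Day 2 and 2 Day 3 embryos, and in Day2-E6 the low-UMI cells had no death UMI. Several of these ratios had 1 or 2 death UMI in the low-UMI cells.

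Among the other BCL2 family genes, 7 of 13 had a row, 4 passed the filter and 2 were called, both higher on Day 3, where 21.2% of all genes were. BCL2L12, a divergent relative of BCL2, rose from 20.8 CPM ± 5.47 to 123 ± 104 (log2 fold change 2.89, SE 0.58, edgeR adjusted p = 0.00150), with 13 CPM in Day3-E1 and 78.0 in Day3-E5. BNIP3, a mitochondrial BH3-like protein known for its part in mitophagy, rose from 63.4 ± 15 to 128 ± 73.6 CPM (1.3, SE 0.33, edgeR adjusted p = 0.00704). The related BNIP3L and BCL2L2, which encodes the survival protein BCL-W, were not called.

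Downstream of the mitochondria, 8 of 11 apoptosome and caspase genes had a row and 4 passed the filter. Of these 4, 2 were called lower on Day 3, where 595 of 5274 genes were, and none was called higher. Without the filter 3 of the 8 genes were called, where 20.3% of 10772 genes were called in either direction. Among them was DFFA, which encodes the inhibitor of the caspase-activated nuclease, at 5.58 CPM ± 1.99 and 16 ± 12.9 (edgeR adjusted p = 0.0367), higher on Day 3. CASP6, an executioner caspase, fell from 355 CPM ± 43.9 to 150 ± 87.0 (log2 fold change -1.03, SE 0.26, edgeR adjusted p = 0.00757). APAF1, the scaffold of the apoptosome, fell from 157 ± 19.7 to 81.1 ± 44.4 CPM (-0.71, SE 0.27, edgeR adjusted p = 0.0497), just inside the threshold. CYCS, the gene of cytochrome c, and CASP2 were not called.

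Of 8 inhibitors of apoptosis and their antagonists, 4 had a row, 3 passed the filter and 2 were called higher, beside the same 21.2% of all genes. DIABLO, which encodes a mitochondrial antagonist of the inhibitors, rose from 8.85 CPM ± 3.24 to 137 ± 104 (log2 fold change 4.34, SE 0.75, edgeR adjusted p = 0.000525). It was at 5.00 CPM, or 3 UMI, in Day3-E1, 52.0 in Day3-E5 and 317 in Day3-E8. BIRC5, the gene of survivin, which also serves in cell division, rose from 215 ± 15 to 360 ± 88.2 CPM (1.07, SE 0.24, edgeR adjusted p = 0.00351). So in the same list an antagonist and an inhibitor both rose.

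In the death receptor list, 8 of 9 genes had a row and 2 passed the filter. Of these 2, 1 was called, higher on Day 3, where 21.2% of all genes were. DAXX, a chromatin-associated protein first described as a partner of FAS, rose from 32.6 CPM ± 9.30 to 130 ± 86.6 (log2 fold change 2.38, SE 0.53, edgeR adjusted p = 0.00312), and RIPK1 was not called. FAS itself had 4 UMI in all cells. In the list of p53 and its regulators, 5 of 7 had a row and 3 passed, of which MDM4, an inhibitor of p53, was lower on Day 3 (194 ± 11 and 103 ± 55.5 CPM, log2 fold change -0.69, SE 0.25, edgeR adjusted p = 0.0465). MDM4 was the 1 gene of these 3 that was called, where 595 of 5274 genes were called lower.

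Of 7 genes listed here as mitochondrial membrane partners, a label not tested for each gene, 6 had a row and 5 passed. Of these 5, 1 was called higher and 1 lower on Day 3, where 32.5% of all genes were called in either direction. AIFM1, the mitochondrial apoptosis-inducing factor, fell from 129 CPM ± 22.1 to 47.5 ± 27.7 (log2 fold change -1.23, SE 0.28, edgeR adjusted p = 0.00351). TMBIM6, the gene of BAX inhibitor 1, rose from 84.1 ± 15 to 152 ± 101 CPM (1.25, SE 0.42, edgeR adjusted p = 0.0329). The 3 VDAC genes of the membrane channel were not called.

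Of 5 genes of MCL1 turnover, ubiquitin ligases and a kinase among them, 4 had a row and all 4 passed. Of these 4, 1 was called higher and 1 lower on Day 3, beside the same 32.5% of all genes in either direction. HUWE1, a ligase that marks MCL1 for degradation, rose from 44.0 CPM ± 9.14 to 152 ± 87.1 (log2 fold change 2.16, SE 0.45, edgeR adjusted p = 0.00199). Day 2 embryos held 28.3 to 51.8 CPM of it, and Day3-E1 with 49.98 and Day3-E5 with 52.0 CPM lay inside and just above these bounds. BTRC, the substrate receptor of another ligase, fell from 249 ± 25 to 133 ± 70.9 CPM (-0.70, SE 0.25, edgeR adjusted p = 0.0365). FBXW7 and GSK3B were not called. Over the genes past the filter, the median log2 fold changes were 0.79 for the other BCL2 family genes, -0.59 for apoptosome and caspases, 1.07 for inhibitors and antagonists, 1.01 for death receptor genes, -0.51 for p53 regulators, -0.04 for membrane partners and -0.14 for MCL1 turnover. Over every gene with a row, in the fit without the filter, they were 0.23, -0.50, 0.69, -0.28, 0.03, -0.31 and -0.22, so the sign turned for the death receptor genes and the p53 regulators. The medians of all genes were -0.04 with and -0.05 without the filter.

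Between low-UMI and high-UMI cells, 1 gene of these 7 lists was called, a share close to the 5.53% of all genes. MDM4 was lower in the low-UMI cells (log2 fold change -0.47, SE 0.15, edgeR adjusted p = 0.0468). The lists had 3, 2, 2, 2, 1, 4 and 4 genes past the filter in that comparison, in the order above.

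The genes whose embryo-to-embryo pattern was most like that of MCL1 were SHD, MED31 and MAT2A, with Pearson r = 0.96, 0.96 and 0.96 of log2(CPM + 1) across the 14 embryos. SHD stood at 13 CPM on Day 2 and 62.1 on Day 3 on average, MED31 at 28 and 133, and MAT2A at 154 and 623. Across the 8 Day 3 embryos alone r was 0.97 for SHD, 0.92 for MED31 and 0.95 for MAT2A. The genes were picked for high r over the 14 embryos that include these 8, so these values are not a separate check. For BCL2L11 the most alike were MRPS30 with r = 0.86, CMTM6 with 0.81 and SNX21 with 0.77. These correlations describe points that share depth and day. For BAK1, with 3 UMI in all, the pattern was too sparse to name genes.

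The oocyte and early embryo markers were abundant in all 14 embryos. Of 12 listed, 10 had a row and passed the filter, and they summed to 10257 to 11643 CPM in Day 2 embryos and 3071 to 11847 in Day 3 embryos. Among Day 3 embryos, Day3-E5 had the highest sum with 11847 CPM, followed by Day3-E1 with 11596, Day3-E3 with 11141, Day3-E7 with 10245 and Day3-E6 with 9512 CPM. Lower sums were found for Day3-E2 with 6707, Day3-E4 with 6255 and Day3-E8 with 3071 CPM. Embryos with MCL1 above the Day 2 range had marker sums both near and well below those of Day 2, but the sums hide differences between markers. In Day3-E7, DPPA3 stood at 4022 CPM, above the Day 2 range. ZAR1 at 42.0, GDF9 at 304 and NPM2 at 394 CPM lay below every Day 2 embryo there. In Day3-E1 and Day3-E5, with low MCL1, ZAR1 was also below the Day 2 range, at 155 and 182 CPM. GDF9 and NPM2 lay inside the Day 2 range in Day3-E1, at 985 and 1083 CPM. In Day3-E5 both lay below it, at 697 and 840 CPM. DPPA3 was above the Day 2 range in both embryos, at 3900 and 4169 CPM. A link of these markers to MCL1 was not tested. Of these markers 5 were called lower on Day 3, where 595 of 5274 genes were, among them ZAR1 (268 ± 41.5 and 83.9 ± 60.8 CPM), GDF9 (1042 ± 134 and 473 ± 305) and NPM2 (1278 ± 114 and 627 ± 359), and none higher. The 2 most abundant markers were not called, DPPA3 at 2764 ± 364 and 3286 ± 1037 CPM (log2 fold change 0.48, edgeR adjusted p = 0.0701) and KPNA7 at 2183 ± 316 and 2244 ± 903 CPM (0.26, edgeR adjusted p = 0.402). Between low-UMI and high-UMI cells 1 of the 10 markers was called, where 5.53% of 3674 genes were. This was DPPA3, a maternal chromatin factor, higher in the low-UMI cells (log2 fold change 0.28, SE 0.07, edgeR adjusted p = 0.0122).

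Markers of cumulus and granulosa cells summed to 500 to 621 CPM on Day 2 and 196 to 553 on Day 3, with 10 of 12 measured, 3 past the filter and none called. Most of this sum was HAS2 (254 ± 38.5 and 190 ± 75.4 CPM) and STAR (260 ± 44.3 and 143 ± 75.7 CPM), whereas FOXL2, AMH and PTX3 had 3, 11 and 9 UMI in all 161 cells. Without the filter 2 of the 10 measured markers were called, where 20.3% of 10772 genes were called in either direction. Both were higher on Day 3: TNFAIP6 (0.380 ± 0.930 and 12.4 ± 14 CPM, edgeR adjusted p = 0.000475) and AMH (0.254 ± 0.621 and 3.24 ± 3.62 CPM, edgeR adjusted p = 0.0363), with 36 and 11 UMI in all. Sperm markers summed to 38.7 to 75.2 and 38.9 to 101 CPM, with 5 of 7 measured, nearly all of it ODF2, which alone passed the filter and was not called. The highest cumulus and granulosa sums of Day 3 were in Day3-E1 with 553 and Day3-E5 with 551 CPM, which had the lowest MCL1, and the next was in Day3-E6 with 506 CPM, which had the second-highest MCL1. The part of these markers in the MCL1 difference was not tested.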

How the data were processed

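The authors mapped SCRB-Seq reads to the bovine genome (Bos tau7) and the ERCC sequences with STAR 2.5.2b and built the UMI counts with the Drop-seq tools. The deposited table holds whole-number UMI counts of 170 cells for 10772 genes and 92 ERCC spike-ins. The authors' normalised table was not used, because its column sums differ between cells. The study's threshold of 2000 UMI per cell was applied, and ERCC rows stayed out of gene totals.

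UMI counts were summed per embryo and tested with edgeR 4.0.16 (quasi-likelihood, TMM, filterByExpr, Benjamini-Hochberg over all genes tested, threshold 0.05) in R 4.3.3. Low-UMI and high-UMI cells were summed separately for each embryo, without the middle cell of an odd number, and fitted with embryo as block. Alternatives used DESeq2 1.42.0 and limma 3.58.1. Genes of other lists were named when called, up to 3 in each direction by size of change (up to 2 between low-UMI and high-UMI cells), and genes alike in pattern were the 3 of highest r. CYCS, CASP2, DFFA, BNIP3L, BCL2L2, RIPK1, FAS, FBXW7, GSK3B, the VDAC genes and single markers were named beside them after their values were seen. The members and lists were chosen with earlier results of these data known. The scripts were tested on simulated data.

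Deviations of embryos with the same number correlated at -0.13 to 0.03, so the numbers do not pair embryos. By the labels, 77 barcodes were used on 2 cells and 16 on 1.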

Additional observations from a re-analysis of the deposited data

Results flagged for a closer look

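A sample was singled out where its gap to the nearest other sample of its group was large against the range of the group (Dixon's criterion). Chance alone gives about 1 in 20 groups, and 14 groups (7 members on 2 days) were examined. The MCL1 level of Day2-E6, 121 CPM, stood above the other 5 Day 2 embryos, which lay between 48.7 and 70.4 CPM. The BID level of Day3-E2, 23.7 CPM, came from 7 UMI. The BCL2 levels of Day2-E6, 4.56 CPM, and of Day3-E3, 2.62 CPM, came from 2 and 1 UMI, and the BAK1 level of Day3-E6, 2.19 CPM, came from 1 UMI, so these 3 reflect single counts among embryos with 0 or 1.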

How the results depend on the processing

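MCL1 was called higher on Day 3 in 22 of 23 alternatives, with log2 fold changes of 1.18 to 2.32. The exception was the fit over embryos wholly in the first run of barcodes (1.18, edgeR adjusted p = 0.160). It held 2 of the 8 Day 3 embryos, Day3-E1 and Day3-E2, and left out Day3-E3 because of 1 cell in the later run. Leaving out each embryo gave 1.95 to 2.32 (adjusted p 0.000128 to 0.00800). The embryo number as replicate block gave 1.61 (adjusted p = 0.0292) and 806 called genes against 1712. Genes called between the days numbered 759 with thinned cells, 351 in the first run and 1327 to 2163 with an embryo left out. Between low-UMI and high-UMI cells, 203 genes were called, and 0 without the replicate block, 129 with cells of 10000 or more UMI, 0 when cells were ranked per ERCC UMI, 33 with thinned cells, 130 in Day 2 and 11 in Day 3 embryos alone, and 88 to 254 with an embryo left out (88 without Day2-E4, 128 without Day2-E6). MCL1 was called in none of 23 alternatives there, from -0.16 in Day 2 embryos only to 0.38 between the extremes of the ranking (cells split in 3), and 0.12 to 0.28 with an embryo left out. Of the other members, 3 values changed sign without being called: BCL2L1 between the days to -0.18 with equal cell weights, BAK1 to 0.40 and BCL2 between low-UMI and high-UMI cells to 1.05 in DESeq2. Members that failed the filter have no value under most alternatives. The median survival to death ratio was 2.92 on Day 2 and 6.47 on Day 3 with each cell weighted equally. Depth limits BCL2, BAK1 and BID, and thinned shares rest on 140 cells.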
